A study of Homo sapiens with 15 samples.

Results

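The genes described here encode the proteasome, its activators, the factors that assemble it, and NFE2L1, a transcription factor of proteasome genes. They were chosen by symbol from the platform's probe-to-gene table (PSMA to PSMG followed by a number, and POMP, ADRM1 and NFE2L1), which held 51 such genes with 82 probes. A gene was kept when a probe of it had a detection p under 0.05 on at least 3 of the 15 arrays, and 48 of the 51 genes passed, out of 12744 genes tested in the whole series. PSMA8, PSMB11 and PSMF1 did not pass: a testis alpha subunit, the thymus beta subunit and a proteasome inhibitor, all detected on 0 arrays. Of the 48 genes, 4 carry a proteasome name by symbol only (PSMC3IP, PSME3IP1, PSMD6-AS2 and PSMG3-AS1) and are given apart, so that counts below run over the other 44. PSMA7, PSMC5, PSMD7 and PSMD13 were not analysed here.

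RNA came from VCaP, a human prostate cancer cell line with a fusion of TMPRSS2 and ERG, in which an androgen-responsive promoter drives the transcription factor ERG. The 5 groups had 3 arrays each: cells treated for 24 h with WP1130, a small molecule that inhibits several deubiquitinating enzymes; cells given its vehicle DMSO; cells transfected with ERG siRNA 1 or with ERG siRNA 2 and taken after 72 h; and cells given a non-targeting siRNA. All groups were VCaP cells grown in the same serum-containing medium, and neither a WP1130 dose nor a time for the DMSO and non-targeting groups is stated in the labels. The labels do not say whether the 3 arrays of a group are separate cultures, so p-values reflect only how far these arrays vary, and that variation may be technical.

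The proteasome is the protease that degrades ubiquitin-tagged proteins. Its barrel, the 20S core, is a stack of alpha and beta rings whose beta subunits hold the catalytic sites, and its cap, the 19S regulatory particle, binds and removes ubiquitin and feeds the substrate into the core with a ring of ATPases. When proteasome activity is blocked, cells are known to raise transcription of proteasome genes through NFE2L1, a protein that is held at the endoplasmic reticulum and must be extracted by VCP, deglycosylated by NGLY1 and cut by DDI2 before it reaches the nucleus.

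Values are log2 intensities after background correction and quantile normalization, and a change is the difference of 2 group means ± SE from a limma model of all 15 arrays, with p-values adjusted over all 12744 genes (Benjamini-Hochberg) and a threshold of 0.05. The WP1130 arrays were dimmer than all others before normalization, with a mean intensity per probe of 305 to 315, against 395 to 432 on the DMSO arrays, while the number of probes detected did not fall (20265 to 21220 with WP1130 and 19246 to 20356 with DMSO). Quantile normalization removes such a difference, so every change with WP1130 below is relative to the other genes of the same array. Under it the median of all genes was -0.12 for WP1130 minus DMSO. It was -0.46 with median scaling and -0.65 with no scaling between arrays. ERG itself was lower with ERG siRNA 1 (-0.71 ± 0.18), with ERG siRNA 2 (-0.78 ± 0.18) and with WP1130 (-0.54 ± 0.18), by limma's adjusted p of 0.0193, 0.00788 and 0.0203. On 1 of the 15 arrays, of ERG siRNA 2, its probe was not detected.

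Luminal prostate markers KLK2, TMPRSS2, HOXB13, KRT8, KRT18, SLC45A3, FOLH1, FOXA1 and EPCAM were detected on all 15 arrays, and the single KLK3 probe on 1 array. Of these 9, 2 rose and 6 fell with WP1130 (median change -0.37), where 21.9% of all genes tested were called higher and 37.1% lower. With the mean of both ERG siRNAs 7 rose and 0 fell (median 0.36), where 10.7% of all genes were called higher and 9.58% lower. These calls were tested as described above for all genes. Of markers of other cell types, PTPRC, CD3E, PECAM1, CDH5, KRT5, KRT14, COL1A2, COL3A1 and MYH11 were detected on 0 arrays, whereas LUM, ACTA2 and CD14 were detected on 15, VWF on 12, LYZ on 9, DCN on 7, COL1A1 on 4 and HBB on 1. Of 19 markers listed 7 passed the filter, and their summed normalised intensity was 970 to 999 on WP1130 arrays and 1082 to 1152 on DMSO arrays, and it was 757 to 856 with ERG siRNA 1 and 751 to 839 with ERG siRNA 2, against 708 to 782 with the non-targeting siRNA. Single ones moved with the treatments, such as CD14 (0.93 for WP1130 minus DMSO) and LUM (-0.84), and their part in the results below was not tested. In bulk RNA, fewer cells of a type and less RNA per cell cannot be told apart.

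With WP1130 the 19S cap rose and the rest of the proteasome split. Of the 44 genes, 19 were higher and 9 were lower with WP1130 than with DMSO, a share of 43.2% and 20.5%, where 21.9% of all genes tested were called higher and 37.1% lower. The median change of the 44 genes was 0.11. In the 19S particle 11 of the 15 subunits among the 44 genes rose and 0 fell, also at an unadjusted p under 0.05, with a median of 0.37. SEM1, a further cap subunit that the choice by symbol leaves out, is given with the partners below and rose too. In the 2 rings of the 20S core 4 of 13 rose and 3 fell, with a median of 0.02. The direction of most rises depends on the scaling: with median scaling 2 of the 44 genes were called higher and 25 lower (all genes 11.5% and 61.6%), and with no scaling 1 was called higher and 33 lower (8.7% and 73.1%). Set against the median of all genes, 32 of the 44 genes lay above it with quantile normalization and 27 with either other scaling.

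**Figure D1:**
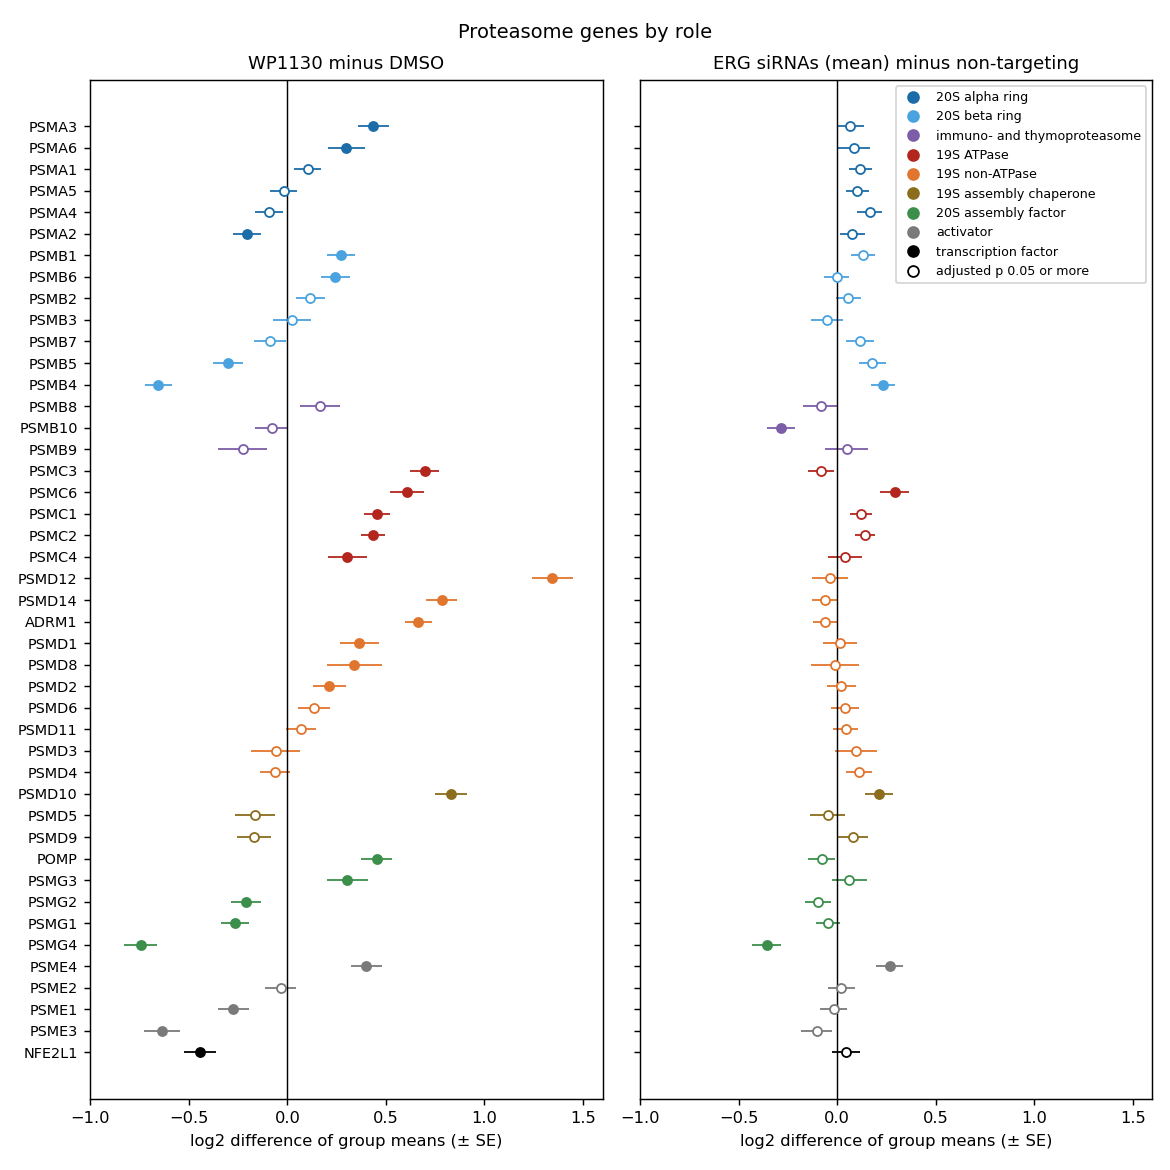
Log2 change of each of the 44 proteasome genes (horizontal axis, group difference ± SE) for WP1130 minus DMSO (left) and for the mean of both ERG siRNAs minus the non-targeting siRNA (right), sorted by role and by size; filled points passed an adjusted p of 0.05. On the left the 5 ATPases all lie right of 0 and PSMD12 is farthest right at 1.34, whereas on the right every point lies between -0.36 and 0.29.

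The ATPase ring of the cap unfolds substrates and threads them into the core. All 5 measured ATPases rose with WP1130: PSMC3 by 0.70, PSMC6 by 0.61, PSMC1 by 0.45, PSMC2 by 0.43 and PSMC4 by 0.30. PSMC3 measured 9.90, 10.01 and 9.99 on WP1130 arrays, against 9.34, 9.34 and 9.13 on DMSO arrays (0.70 ± 0.074, limma adjusted p = 1.08e-06). PSMC6 measured 10.99, 11.26 and 11.31 on WP1130 arrays, against 10.50, 10.66 and 10.58 on DMSO arrays (0.61 ± 0.085, limma adjusted p = 1.82e-05). In both genes the 3 WP1130 arrays lay above all DMSO arrays. The smallest of these rises, that of PSMC4 (limma adjusted p = 0.0145), lost its call without DMSO replicate 1 or WP1130 replicate 1. The median of the ATPases stayed above that of all genes by 0.57 with quantile normalization and by 0.54 with either other scaling, but with no scaling all 5 changes were below 0 (median -0.12).

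The other cap subunits form its lid and base. Of the 10 among the 44 genes, 6 rose with WP1130: PSMD12, PSMD14, ADRM1, PSMD1, PSMD8 and PSMD2. PSMD12 is a scaffold subunit of the lid, and its change was the largest of the 44 genes. It measured 9.86, 10.08 and 10.32 on WP1130 arrays, against 8.79, 8.63 and 8.82 on DMSO arrays. That is 2.54-fold higher (1.34 ± 0.10, limma adjusted p = 3.2e-08), and every WP1130 array lay more than a log2 unit above every DMSO array. PSMD12 was the only one of the 44 genes whose rise kept its call under all 17 other settings, at 0.59 to 1.46. PSMD14, the lid's deubiquitinase that removes ubiquitin chains from substrates, measured 10.39, 10.57 and 10.59 on WP1130 arrays, against 9.74, 9.62 and 9.84 on DMSO arrays (0.78 ± 0.077, limma adjusted p = 4.53e-07). It kept its call with median scaling and lost it with no scaling (0.08). ADRM1, a ubiquitin receptor that also anchors the deubiquitinase UCHL5, measured 10.37, 10.45 and 10.31 on WP1130 arrays, against 9.67, 9.80 and 9.66 on DMSO arrays (0.66 ± 0.069, limma adjusted p = 8.58e-07). A second, dimmer ADRM1 probe rose by 0.25. All 3 WP1130 arrays lay above the DMSO arrays for PSMD14 and for ADRM1.

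Smaller rises were seen for PSMD1 (0.37) and PSMD2 (0.21), the large scaffold subunits of the base, and for PSMD8 (0.34), a lid subunit. The PSMD8 call was lost when any 1 of the 6 arrays was left out, and that of PSMD2 without DMSO replicate 2 or 3 or WP1130 replicate 2 or 3. The 4 that did not pass were PSMD6 (0.13), PSMD11 (0.07) and PSMD3 (-0.06), lid subunits, and PSMD4 (-0.06), a ubiquitin receptor. The second PSMD6 probe was higher by 0.30 and passed (limma adjusted p = 0.0048 in a test of every probe). The 3 PSMD4 probes differed in sign, at -0.06, 0.05 and 0.14, and none passed.

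The ATPases join the base in steps that chaperones guide. PSMD10, also known as gankyrin and studied as an oncoprotein in liver cancer, is one of 3 such chaperones among the 44 genes, and 1 of the 3 rose with WP1130. PSMD10 measured 10.17, 10.23 and 10.37 on WP1130 arrays, against 9.38, 9.47 and 9.43 on DMSO arrays (0.83 ± 0.08, limma adjusted p = 3.45e-07). Its groups did not overlap, and its other probes rose by 0.72 and 0.88. The call was lost with median scaling and with no scaling, where the change was 0.09. PSMD5 (-0.16) and PSMD9 (-0.17) did not pass. PSMD9 was detected on 9 of the 15 arrays. PAAF1, a further chaperone of the base that is counted with the partners below, fell by 0.29 (limma adjusted p = 0.0126), and its WP1130 arrays overlapped with the DMSO arrays.

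**Figure D2:**
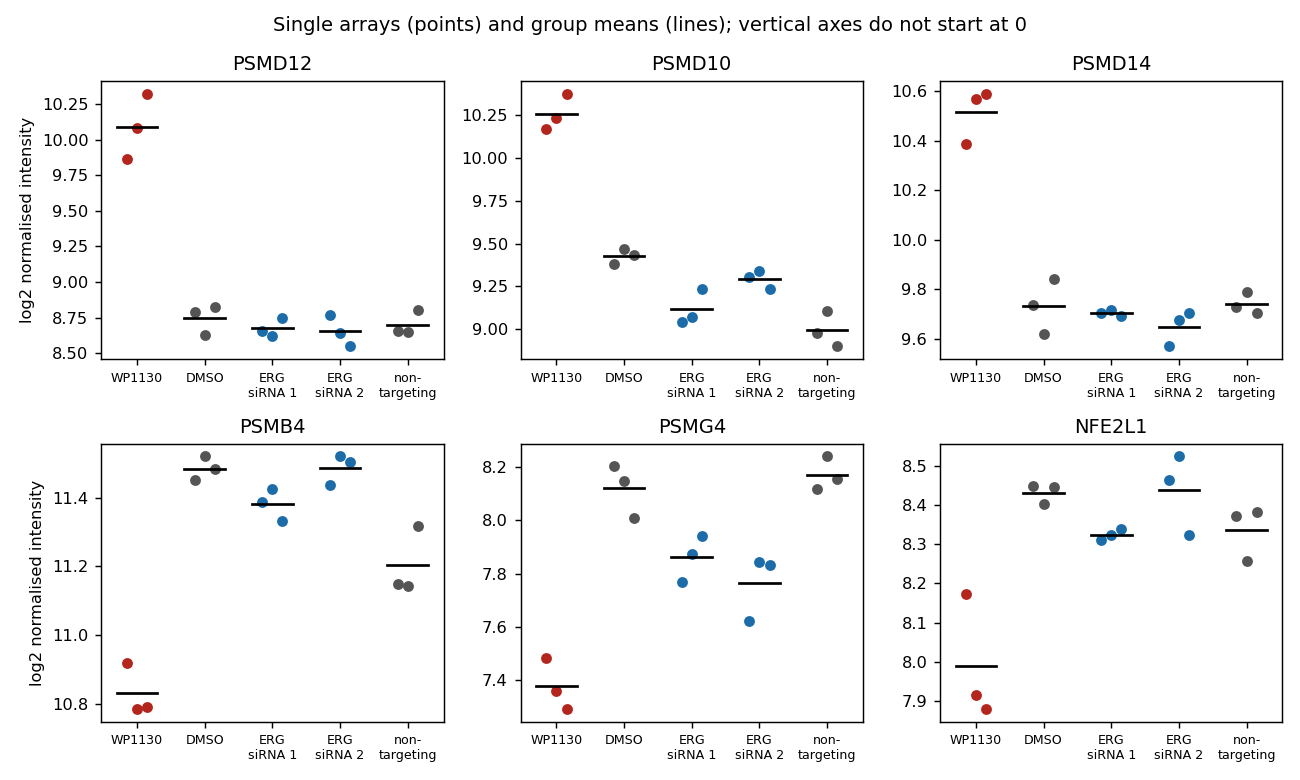
Log2 normalised intensity (vertical axes, each with its own range and not starting at 0) of 6 proteasome genes on single arrays of the 5 groups (points) with group means (lines). PSMD12, PSMD10 and PSMD14 are highest on the 3 WP1130 arrays, and PSMB4, PSMG4 and NFE2L1 are lowest there.

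The sequences before the starts of the 3 genes with the largest rises are printed beside those of 2 core subunits with the smallest changes with WP1130, PSMA5 (-0.02) and PSMB3 (0.02), because the known route to coordinated proteasome transcription runs through short motifs there. Each is the 250 bases before the first start that RefSeq lists for the gene on GRCh38.p14, 5′ to 3′ on the gene's strand. Capitals mark the core of the antioxidant response element (TGACNNNGC, bound by NFE2L1 and NFE2L2 with small MAF proteins) and the CCAAT box (bound by NF-Y), on either strand.
PSMD12, chr17:67366578-67366827, minus strand: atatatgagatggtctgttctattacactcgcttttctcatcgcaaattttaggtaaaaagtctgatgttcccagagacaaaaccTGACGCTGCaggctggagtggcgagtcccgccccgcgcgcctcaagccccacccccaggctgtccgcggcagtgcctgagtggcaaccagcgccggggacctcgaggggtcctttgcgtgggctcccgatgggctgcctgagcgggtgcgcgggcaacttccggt
PSMD10, chrX:108091543-108091792, minus strand: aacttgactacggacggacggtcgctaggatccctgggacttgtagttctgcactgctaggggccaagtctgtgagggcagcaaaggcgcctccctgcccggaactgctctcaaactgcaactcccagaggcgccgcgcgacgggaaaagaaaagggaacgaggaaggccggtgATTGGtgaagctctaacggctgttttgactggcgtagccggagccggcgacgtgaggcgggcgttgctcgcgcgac
PSMD14, chr2:161308175-161308424, plus strand: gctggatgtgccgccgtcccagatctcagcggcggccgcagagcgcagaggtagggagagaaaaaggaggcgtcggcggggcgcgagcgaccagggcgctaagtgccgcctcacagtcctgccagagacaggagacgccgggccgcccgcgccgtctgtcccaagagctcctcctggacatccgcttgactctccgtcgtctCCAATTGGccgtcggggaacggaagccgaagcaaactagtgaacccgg
PSMA5, chr1:109426449-109426698, minus strand: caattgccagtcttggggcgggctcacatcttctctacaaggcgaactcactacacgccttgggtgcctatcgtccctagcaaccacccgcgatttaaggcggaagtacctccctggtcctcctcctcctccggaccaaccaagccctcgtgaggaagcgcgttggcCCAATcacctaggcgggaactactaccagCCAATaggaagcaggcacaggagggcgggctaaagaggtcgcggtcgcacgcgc
PSMB3, chr17:38752491-38752740, plus strand: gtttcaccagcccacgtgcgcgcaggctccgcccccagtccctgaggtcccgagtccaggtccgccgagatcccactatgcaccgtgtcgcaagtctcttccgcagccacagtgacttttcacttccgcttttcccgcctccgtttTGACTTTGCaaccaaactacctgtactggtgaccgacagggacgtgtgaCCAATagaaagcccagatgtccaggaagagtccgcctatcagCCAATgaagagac

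PSMD12 held the antioxidant response core, and so did PSMB3, 1 of the 2 genes without a call; PSMD10, PSMD14 and PSMA5 did not hold it in this window. In PSMD12 the last base of the match lay 157 bases before the start, and in PSMB3 it lay 96 bases before. CCAAT boxes stood in PSMD10, PSMD14, PSMA5 and PSMB3. In PSMD14 the CCAAT box on 1 strand overlaps that on the other. Of the 44 genes 39 had a promoter in the RefSeq table, and PSMB1, PSMB6, PSMB7, PSMD4 and PSMG3 had none there. The antioxidant response core stood in 12 of the 39 (30.8%), against 11% of all 27305 promoters of the same length and 12.4% of the promoters of genes tested here. By response to WP1130, 3 of 16 genes that rose held it (PSMD12, ADRM1 and PSME4), 3 of 9 that fell (PSME1, PSMG1 and PSMG2) and 6 of 14 without a call (PSMB3, PSMB9, PSMD3, PSMD5, PSMD9 and PSME2), and the difference between these counts was not tested. Among the 24 ring and cap subunits with a promoter 4 held it (16.7%). A pair of heat shock element units (GAANNTTC, both strands) stood in 0 of the 39, against 5.8% of all promoters and 4.1% of those of genes tested, and a CCAAT box in 17 of the 39 (43.6%), against 33.0% of all promoters and 35.7% of those of genes tested. A match of letters describes the sequence and shows no binding.

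In the 20S core the genes moved in both directions. The alpha ring gates the barrel, and of its 6 measured subunits PSMA3 (0.44) and PSMA6 (0.30) rose with WP1130, PSMA2 (-0.21) fell, and PSMA1 (0.10), PSMA4 (-0.09) and PSMA5 did not pass. A second PSMA3 probe rose by 0.79. Probes of PSMA1 (0.10, 0.08 and -0.07) and of PSMA4 (-0.09 and 0.05) differed in sign and none passed. The calls of PSMA2 and of PSMA6 were each lost without 1 of 3 single arrays, namely WP1130 replicate 1 or 2 or DMSO replicate 3 for PSMA2, and WP1130 replicate 2 or 3 or DMSO replicate 3 for PSMA6.

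The beta ring holds the proteolytic sites. PSMB1 (0.27), a structural subunit, and PSMB6 (0.24, a call lost without DMSO replicate 1), the caspase-like site, rose with WP1130, while PSMB4 and PSMB5 fell. PSMB4, a structural subunit, measured 10.92, 10.78 and 10.79 on WP1130 arrays, against 11.45, 11.52 and 11.48 on DMSO arrays (-0.65 ± 0.07, limma adjusted p = 1.15e-06). Its WP1130 arrays were lower than all 12 others in the series. PSMB5, the chymotrypsin-like site that bortezomib binds, measured 11.06, 10.97 and 10.89 on WP1130 arrays, against 11.19, 11.33 and 11.31 on DMSO arrays (-0.30 ± 0.078, limma adjusted p = 0.0036). These groups did not overlap. Its WP1130 arrays did overlap with those of the non-targeting siRNA (11.01 to 11.08) and of ERG siRNA 1 (11.04 to 11.30). PSMB7 (-0.09), the trypsin-like site, PSMB2 (0.12) and PSMB3 did not pass. The inducible subunits that replace the catalytic ones in the immunoproteasome, PSMB8 (0.17), PSMB9 (-0.23) and PSMB10 (-0.08), gave 0 calls of 3 with limma, and 0 at an unadjusted p under 0.05. PSMB9 was detected on 4 of the 15 arrays, and the 3 PSMB8 probes differed in sign (0.17, 0.31 and -0.05).

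**Figure D3:**
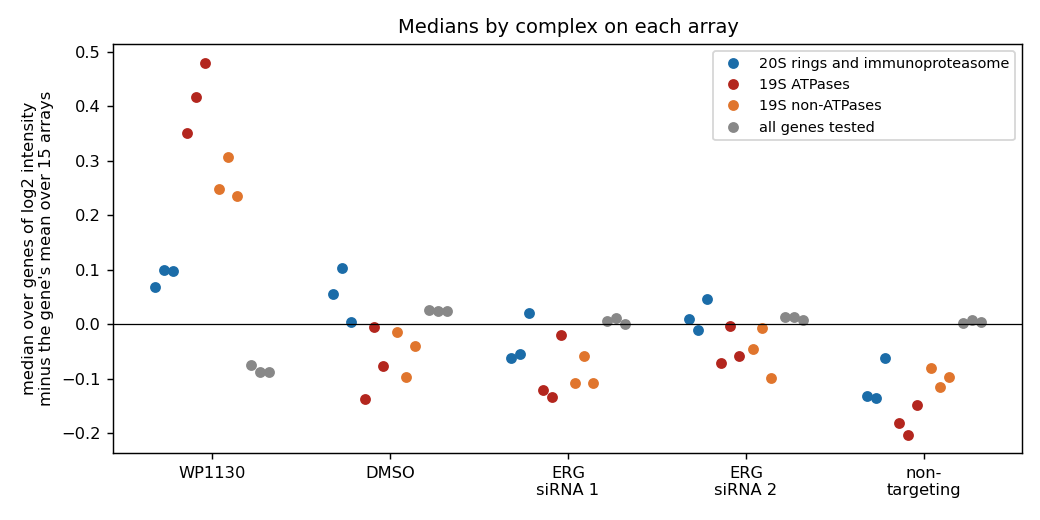
Median over genes of log2 intensity minus each gene's mean over all 15 arrays (vertical axis), on each array (points) of the 5 groups. Medians are given for the core rings, the 19S ATPases, the other 19S subunits and all genes tested. The legend also names the immunoproteasome, but its subunits are not part of the core medians. ATPase medians are 0.35 to 0.48 on WP1130 arrays and -0.14 to -0.01 on DMSO arrays, while core medians are 0.07 to 0.10 and 0.00 to 0.10.

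The cap and the core stood apart on single arrays. These medians come from the same quantile-normalized values as the changes above and are not separate support. The median of the ATPases, each gene centred on its mean over all arrays, was 0.35, 0.42 and 0.48 on WP1130 arrays, against -0.14, -0.01 and -0.08 on DMSO arrays. The median of the other cap subunits was 0.25, 0.31 and 0.24 on WP1130 arrays, against -0.02, -0.10 and -0.04 on DMSO arrays. For the core rings, without the immunoproteasome subunits, the groups overlapped. Their medians were 0.07, 0.10 and 0.10 on WP1130 arrays, against 0.06, 0.10 and 0.00 on DMSO arrays.

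The 20S rings are built on 5 dedicated factors, of which 2 rose and 3 fell with WP1130 (all genes 21.9% and 37.1%). PSMG1 with PSMG2 and PSMG3 with PSMG4 form the pairs of chaperones that assemble the alpha ring, and POMP lets the beta subunits join and then is degraded. PSMG4 measured 7.48, 7.36 and 7.29 on WP1130 arrays, against 8.20, 8.15 and 8.01 on DMSO arrays (-0.74 ± 0.085, limma adjusted p = 2.21e-06), which was the largest fall of the 44 genes. Its groups did not overlap, but a second, dim probe, detected on 13 arrays, gave -0.21 and did not pass. Its partner PSMG3 rose by 0.30, a call that was lost without WP1130 replicate 2 or DMSO replicate 3. The other pair fell, PSMG1 by 0.26 and PSMG2 by 0.21, the PSMG2 call being lost without DMSO replicate 1 or 2 or WP1130 replicate 3. POMP measured 11.41, 11.58 and 11.56 on WP1130 arrays, against 11.09, 11.03 and 11.06 on DMSO arrays (0.45 ± 0.078, limma adjusted p = 0.00013), and its groups did not overlap.

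Activators other than the cap open the barrel without ATP. PSME3, the nuclear activator that promotes degradation of several cell cycle inhibitors, measured 8.68, 8.35 and 8.62 on WP1130 arrays, against 9.19, 9.09 and 9.28 on DMSO arrays (-0.63 ± 0.091, limma adjusted p = 2.22e-05). Its second probe fell by 0.80, and the groups did not overlap. PSME4, a large nuclear activator, rose by 0.40, PSME1 fell by 0.27, and PSME2, which forms the interferon-inducible activator with PSME1, did not pass (-0.03).

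The mRNA of NFE2L1 fell. It measured 8.17, 7.91 and 7.88 on WP1130 arrays, against 8.45, 8.40 and 8.45 on DMSO arrays (-0.44 ± 0.082, limma adjusted p = 0.000266), and every WP1130 array lay below every array of the other groups. The fall kept its call under all 17 other settings, at -1.22 to -0.33. Among these, median scaling and no scaling shift all genes down with WP1130 (median of all genes -0.46 and -0.65). A fall could therefore hardly be lost under them. The activity of NFE2L1 is known to be set mainly after translation, and no protein was measured here.

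Other factors that work with the proteasome or with NFE2L1 moved in both directions. Of 29 measured on a list of 34 entries (some of them older symbols of the same gene), 14 rose and 9 fell with WP1130, where 21.9% of all genes were called higher and 37.1% lower, and their median change was 0.11, against -0.12 for all genes. With median scaling 7 rose and 16 fell (all genes 11.5% and 61.6%), and with no scaling 7 rose and 19 fell (8.7% and 73.1%). The list was chosen with earlier results of these data known, so its counts describe its genes and cannot show an excess over all genes. ZFAND2A, an arsenite-inducible protein that binds the cap, measured 12.44, 12.75 and 12.60 on WP1130 arrays, against 8.19, 8.09 and 7.90 on DMSO arrays, which is 23.2-fold higher (4.54 ± 0.10, limma adjusted p = 7.53e-15). AKIRIN2, which carries assembled proteasomes into the nucleus, rose by 1.40. TXNL1, a thioredoxin bound to the cap, rose by 1.27, and PITHD1, which shares a domain with it, by 1.0. Falls were led by USP14 at -0.75, UBQLN4 at -0.70, UBE3C at -0.53 and RAD23B at -0.48. USP14 is a deubiquitinase of the cap, UBE3C a ubiquitin ligase bound to the proteasome, and UBQLN4 and RAD23B shuttle ubiquitin-tagged proteins to it.

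USP14 and UCHL5 are the cap's reversible deubiquitinases and among the enzymes WP1130 is reported to inhibit. USP14 measured 7.77, 7.78 and 7.86 on WP1130 arrays, against 8.75, 8.41 and 8.50 on DMSO arrays (limma adjusted p = 1e-05), without overlap. UCHL5 measured 8.11, 8.34 and 8.48 on WP1130 arrays, against 8.25, 8.29 and 8.39 on DMSO arrays, and its change was 0.00 with a 95% interval of -0.18 to 0.19. Along the NFE2L1 route, the protease DDI2 rose by 0.41, the glycanase NGLY1 (-0.12) and the extracting ATPase VCP (0.03) did not pass, and DDI1, a testis relative of DDI2, was not well above background on any WP1130 array and at least 1.07-fold lower there. NFE2L2, a factor related to NFE2L1, rose by 0.48, and the small MAF partner MAFG by 0.58. MAFF, another, measured 5.59, 5.97 and 5.57 on WP1130 arrays, against 4.64, 4.58 and 4.94 on DMSO arrays, of which 1 of 3 detected it, so the size of this called difference rests on values near background. SEM1, the smallest cap subunit, rose by 0.31. With median scaling NFE2L2 (-0.11) and SEM1 (-0.12) were below 0, and the calls of DDI2 and MAFG were lost; with no scaling all 4 were below 0.

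Antigen processing uses peptides that the proteasome makes. Of 11 measured genes of 16 listed, 5 rose and 2 fell with WP1130 (all genes 21.9% and 37.1%). With median scaling 5 rose and 5 fell (all genes 11.5% and 61.6%), and with no scaling 4 rose and 5 fell (8.7% and 73.1%). This list, too, was chosen with earlier results of these data known, and its counts cannot show an excess over all genes. IRF1, a transcription factor that induces immunoproteasome subunits, rose by 2.02, and ERAP2, which trims peptides in the endoplasmic reticulum, by 1.55. HLA-E, a class I molecule, was not well above background on any DMSO array and was at least 1.54-fold higher with WP1130, and HLA-F, another, rose by 1.02. The peptide transporter subunit TAP2 fell by 0.91 and the chaperone CALR by 0.27.

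With the ERG siRNAs few proteasome genes were called, and their changes were small. The fall of ERG given above comes from a probe that was not detected on an array of ERG siRNA 2. How much ERG was left is therefore uncertain, and the effect of a full loss of ERG was not tested. With the mean of both siRNAs 4 of the 44 genes were higher and 2 were lower than with the non-targeting siRNA, a share of 9.09% and 4.55%, where 10.7% of all genes were called higher and 9.58% lower. The shares of the proteasome genes were thus not above the background. The 4 were PSMC6, PSME4, PSMB4 and PSMD10, and the 2 were PSMG4 and PSMB10. The median of the 44 genes was 0.04 and that of all genes 0.00.

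PSMC6 measured 10.55, 10.51 and 10.62 with ERG siRNA 1 and 10.57, 10.60 and 10.58 with ERG siRNA 2, against 10.19, 10.29 and 10.35 with the non-targeting siRNA (0.29 ± 0.073, limma adjusted p = 0.0101). PSME4 measured 10.47, 10.33 and 10.31 with ERG siRNA 1 and 10.32, 10.42 and 10.35 with ERG siRNA 2, against 10.09, 10.06 and 10.15 with the non-targeting siRNA (0.27 ± 0.067, limma adjusted p = 0.01). In both genes all 6 ERG siRNA arrays lay above the 3 non-targeting arrays. PSMB4 measured 11.39, 11.43 and 11.33 with ERG siRNA 1 and 11.44, 11.52 and 11.50 with ERG siRNA 2, against 11.15, 11.14 and 11.32 with the non-targeting siRNA (0.23 ± 0.061, limma adjusted p = 0.0131). PSMD10 measured 9.05, 9.07 and 9.23 with ERG siRNA 1 and 9.31, 9.34 and 9.24 with ERG siRNA 2, against 8.98, 9.11 and 8.90 with the non-targeting siRNA (0.21 ± 0.069, limma adjusted p = 0.041). The ERG siRNA arrays of PSMD10 overlapped with the non-targeting arrays and those of PSMB4 did not. PSMG4 measured 7.77, 7.87 and 7.94 with ERG siRNA 1 and 7.62, 7.84 and 7.83 with ERG siRNA 2, against 8.12, 8.24 and 8.16 with the non-targeting siRNA (-0.36 ± 0.073, limma adjusted p = 0.00272). PSMB10, a catalytic immunoproteasome subunit, measured 10.44, 10.60 and 10.65 with ERG siRNA 1 and 10.35, 10.40 and 10.52 with ERG siRNA 2, against 10.90, 10.68 and 10.75 with the non-targeting siRNA (-0.29 ± 0.071, limma adjusted p = 0.00984). For both PSMG4 and PSMB10 every ERG siRNA array lay below every non-targeting array.

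These calls rest on few arrays. Without non-targeting replicate 1 the rises numbered 1 (all genes 7.43%), and without non-targeting replicate 2 they numbered 2 (all genes 8.12%). The PSMD10 call was lost when non-targeting array 1 or 3, the third of ERG siRNA 1, or array 1 or 2 of ERG siRNA 2 was left out. The call of PSMB10 was lost without non-targeting replicate 1. With no scaling between arrays 0 of the 44 genes rose and 1 fell, where the shares of all genes were 6.73% and 4.28%. Taken alone, ERG siRNA 1 gave 2 rises and 1 fall among the 44 genes (all genes 6.75% and 6.25%), and ERG siRNA 2 gave 7 rises and 2 falls (all genes 10.0% and 8.59%). The 7 were PSMB4, PSMB5, PSMC1, PSMC2, PSMC6, PSMD10 and PSME4, and leaving out any 1 array left 2 to 4 rises. Those of ERG siRNA 1 numbered 0 to 2. PSMC6 and PSME4 rose and PSMG4 fell with each siRNA alone. With the mean of a gene's probes in place of the brightest one, the calls of PSMC6 and PSMG4 were lost, at 0.04 and -0.10 with ERG siRNA 1, 0.16 and -0.22 with ERG siRNA 2, and 0.10 and -0.16 with the mean of both siRNAs. With the replicate block ERG siRNA 2 had 5 rises, since PSMB5 and PSMC2 lost their calls. Between the siRNAs limma gave 0 calls among the 44 genes, where 0.0628% of all genes were called higher and 0.0549% lower with ERG siRNA 2. At an unadjusted p under 0.05, 3 of the 44 genes were higher and 0 lower. At that threshold 634 of all 12744 genes were higher and 477 lower. NFE2L1 measured 8.31, 8.32 and 8.34 with ERG siRNA 1 and 8.46, 8.52 and 8.32 with ERG siRNA 2, against 8.37, 8.26 and 8.38 with the non-targeting siRNA, with a change of 0.04 and a 95% interval of -0.11 to 0.20.

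Among the partners 2 of 29 rose and 3 fell with the ERG siRNAs (6.9% and 10.3%), which is near the 10.7% and 9.58% of all genes. UFD1, a cofactor of VCP, rose by 0.42 and SQSTM1, an autophagy receptor for ubiquitin-tagged proteins, by 0.26. NFE2L3, a relative of NFE2L1, fell by 0.60, NFE2L2 by 0.31 and ECPAS, a proteasome adaptor, by 0.22. In antigen processing 1 of 11 genes passed, HLA-F, which was not well above background on any non-targeting array.

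The difference between the WP1130 effect and the ERG siRNA effect was tested gene by gene. It was above 0 for 12 of the 44 genes and below 0 for 7, where 19.8% of all genes were called above 0 and 31% below. In the ATPase ring 4 of 5 genes passed, with PSMC3 at 0.78 ± 0.098 (limma adjusted p = 9.89e-06). PSMD12 had the largest positive difference (1.38 ± 0.14, limma adjusted p = 8.76e-07) and PSMB4 the largest negative one (-0.89 ± 0.093, limma adjusted p = 1.43e-06). PSMB4 thus was lower with WP1130 than with DMSO and higher with the ERG siRNAs than with the non-targeting siRNA. PSMC6, PSMD10 and PSME4 rose in both comparisons and PSMG4 fell in both, and 15 of the 44 genes were called in neither. These counts were not made over all genes, so they cannot show an excess or a lack among the 44. With no scaling the difference was above 0 for 1 of the 44 genes and below for 32, where the shares of all genes were 7.93% and 66.7%.

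The control groups themselves differed in these genes. With DMSO 10 of the 44 genes were higher than with the non-targeting siRNA and 0 were lower (1 lower and 18 higher at an unadjusted p under 0.05), where 13.1% of all genes were called higher and 11.6% lower, and the median of the 44 genes was 0.12. The 10 were PSMB8 (0.48), PSMD10 (0.43), PSMA5 (0.36), PSMC6 (0.30), PSMB1 (0.29), PSMB4 (0.28), PSME1 (0.28), PSMA3 (0.26), PSMB5 (0.25) and PSMG1 (0.22). Of the core rings 5 of 13 were higher, and of the 15 cap subunits 1. Without non-targeting replicate 1 there were 6 higher genes (all genes 9.73%), and with no scaling 3 (all genes 7.71%). This comparison and those of the ERG siRNAs share the 3 non-targeting arrays, so PSMC6, PSMB4 and PSMD10, higher in both, do not give independent support in both. Vehicle, transfection and time cannot be told apart in it.

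Of the 4 genes with a proteasome name by symbol only, 2 fell with WP1130, PSMC3IP (-0.61), a partner of recombinases in meiosis, and PSME3IP1 (-0.53), which binds PSME3. Among all genes tested 37.1% were called lower with WP1130. The 3 PSMC3IP probes differed in sign (-0.61, -0.26 and 0.03). The antisense transcripts PSMG3-AS1 (-0.23) and PSMD6-AS2 did not pass, and PSMD6-AS2 was detected on 8 of the 15 arrays.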

How the data were processed

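The submitters deposited a table of linear probe intensity for each of the 15 arrays (Illumina HumanHT-12 v4), with a detection p-value against negative control beads, per the file headers. GenomeStudio is named, without version, in the submitters' processing notes. A second deposited table holds the authors' processed intensity values: ranks equalled those of the first table, sorted values matched the first array's within 1% on 15 arrays, and each column's median was 9.50. Its scale is linear and its values are not centred by gene; how background was corrected is not stated in the labels or headers, and it served as an alternative after log2 with a floor of 16.

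Intensities were background-corrected (normexp, offset 16), quantile normalized and log2-transformed (limma 3.58.1, function neqc, R 4.3.3). Probes with a detection p under 0.05 on at least 3 arrays were kept (23281 of 47322), and the brightest probe stood for each of 12744 genes. A limma model of 5 groups (10 residual degrees of freedom) gave 7 contrasts, two-sided, with Benjamini-Hochberg adjustment. The number of arrays limits the precision (median SE 0.10 for WP1130 minus DMSO). Correlations between replicate arrays were 0.993 to 0.997, and 0 pairs of arrays were identical. A probe undetected on every array of a group gives a bound: the bright group's mean is divided by a floor, which on each dim array is the lowest detected value or the probe's own value if that is higher.

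The genes and the lists (partners, antigen processing, markers) were chosen with earlier results of these data known. Every gene past the filter is named; values per array are given for the 3 largest rises and falls with WP1130, genes called with the ERG siRNAs, and others where a result turns on them, some of these chosen after their values were seen. Gene symbols are those of the platform annotation. The fit was tested on simulated data. Promoters come from RefSeq (GRCh38.p14). Alternatives were background correction, scaling, starting table, filter, replicate block, groups in the fit, variance model, probe summary, threshold and leaving out each array.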

Additional observations from a re-analysis of the deposited data

How the results depend on the processing

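The scaling between arrays decided the direction of most rises with WP1130. For WP1130 minus DMSO, median scaling gave 2 genes up, 25 down and a median of -0.35, and no scaling gave 1 up, 33 down and a median of -0.54. For the WP1130 effect minus the ERG siRNA effect, median scaling gave 1 up, 26 down and a median of -0.39. Of all genes 10.3% were up and 58.2% down with it. No scaling gave 1 up, 32 down and a median of -0.56 (all genes 7.93% up and 66.7% down). The dimmer WP1130 arrays move this way by the construction of these settings, and why they were dimmer was not tested. Rises that turned below 0 for WP1130 minus DMSO with median scaling were POMP -0.027, PSMA3 -0.086, PSMA6 -0.075, PSMB1 -0.036, PSMB6 -0.21, PSMC2 -0.067, PSMC4 -0.30, PSMD1 -0.24, PSMD2 -0.34, PSMD8 -0.18, PSME4 -0.13 and PSMG3 -0.24. Those with no scaling were ADRM1 -0.046, POMP -0.22, PSMA3 -0.28, PSMA6 -0.27, PSMB1 -0.23, PSMB6 -0.40, PSMC1 -0.12, PSMC2 -0.26, PSMC3 -0.084, PSMC4 -0.49, PSMC6 -0.089, PSMD1 -0.43, PSMD2 -0.53, PSMD8 -0.37, PSME4 -0.32 and PSMG3 -0.43. For the difference of effects, PSMA3 -0.18, PSMB6 -0.23, PSMC1 -0.062, PSMC2 -0.21, PSMC6 -0.20 and PSMD1 -0.30 turned with median scaling, and ADRM1 -0.0023, POMP -0.13, PSMA3 -0.34, PSMB6 -0.39, PSMC1 -0.23, PSMC2 -0.38, PSMC3 -0.011, PSMC6 -0.37, PSMD1 -0.47 and PSMD10 -0.14 turned with no scaling. No fall turned. For the ERG siRNA mean, median scaling gave 1 up (all genes 9.6%) and a median of 0.081. No scaling gave 0 up and 1 down (all genes 6.73% and 4.28%). ERG siRNA 1 gave 0 up and 0 down with both. Of all genes 5.81% and 2.9% were called with median scaling, and 4.13% and 2.51% with no scaling. Its median was 0.058 with median scaling. ERG siRNA 2 gave 0 up with both (all genes 8.46% with median scaling and 5.57% with no scaling). For DMSO minus the non-targeting siRNA the median was 0.20 with median scaling and 0.16 with no scaling, where 3 genes were up.

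Under the remaining settings WP1130 minus DMSO stayed within 1.5 times of 19 up and 9 down. For the ERG siRNA mean the rises were 8 without background correction and with the authors' processed values, 7 with trend and robust eBayes and 0 at an adjusted p under 0.01, and falls were 1 with the mean of a gene's probes. For ERG siRNA 1, rises and falls were 4 and 2 without background correction and with trend and robust eBayes, 0 and 0 at an adjusted p under 0.01 and with only the groups compared, and 1 and 0 with the mean of a gene's probes, and rises were 0 with every probe on its own. For ERG siRNA 2, rises were 1 at an adjusted p under 0.01 and falls 1 with the mean of a gene's probes. For the difference of effects, every probe on its own gave 20 probes up and a median of 0.15, and the stricter filter a median of 0.11. For DMSO minus the non-targeting siRNA, rises were 17 without background correction (median 0.083), 16 with trend and robust eBayes and 5 at an adjusted p under 0.01; 1 gene fell without background correction, with the authors' processed values, the stricter filter, trend and robust eBayes, the mean of probes, and among single probes. The cause of these differences was not tested.

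Leaving out 1 array at a time gave 15 to 18 up and 8 to 10 down for WP1130 minus DMSO; 1 to 5 up and 1 to 2 down for the ERG siRNA mean; 0 to 2 up and 0 to 1 down for ERG siRNA 1; 2 to 4 up and 2 down for ERG siRNA 2; 6 to 10 up for DMSO minus the non-targeting siRNA (6 without non-targeting replicate 1); 9 to 13 up and 5 to 8 down for the difference of effects; and a median from -0.012 to 0.035 for ERG siRNA 2 minus ERG siRNA 1. Correlations of same-numbered arrays' deviations were -0.06 to 0.14, above 0.1 in 3 of 15 pairs but in no comparison for every pair, and the labels do not say what the numbers mark, so they were not taken as pairs. With the replicate block WP1130 minus DMSO had 19 up and 9 down, the ERG siRNA mean 4 up and 2 down, and ERG siRNA 2 had 5 up in place of 7, without PSMB5 and PSMC2. Dim probes limit PSMB9 and PSMD9, detected on 4 and 9 of the 15 arrays.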

Other observations

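Across the 44 proteasome genes, the changes with WP1130 and with the mean of both ERG siRNAs had a Pearson correlation of 0.17, and across all 12744 genes one of 0.04; these are descriptions across genes, which are not independent replicates.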
